A study of Mus musculus with 40 samples.

Results

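The CDK inhibitor genes were the 7 genes Cdkn1a, Cdkn1b, Cdkn1c, Cdkn2a, Cdkn2b, Cdkn2c and Cdkn2d, chosen by gene symbol among the 24062 genes of the count table, and every one of them was found there. RNA-Seq measured them in MEFs, the fibroblasts of mouse embryos, which were taken 13.5 days post coitum from a strain of mixed C57BL/6J and 129P2OlaHsd background and used as primary cells of passage 3. Sall2, which encodes a transcription factor with zinc fingers, was intact in the WT embryos, disrupted on 1 allele in Het and on both in KO, and the disrupted allele carries a neomycin cassette. The cells were left untreated (control) or were given 1 μM doxorubicin for 16 h. Control cells came from 1 WT, 1 Het and 3 KO embryos and doxorubicin-treated cells from 1 WT, 1 Het and 2 KO embryos. The table has a column for a 10th library, KO embryo 3 with doxorubicin, that held the same count as KO embryo 2 with doxorubicin in all 24062 genes, so the 2 columns were counted as 1 library and 9 libraries were used. No genotype other than KO had more than 1 embryo, so the spread between embryos of a genotype is known from KO alone.

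The cell cycle is driven by cyclin-dependent kinases (CDKs) bound to cyclins, and the inhibitors stop this drive in 2 ways. The 3 CIP/KIP genes Cdkn1a (p21), Cdkn1b (p27) and Cdkn1c (p57) encode proteins that bind whole cyclin-CDK complexes, chiefly those of CDK2. The 4 INK4 genes Cdkn2a (p16), Cdkn2b (p15), Cdkn2c (p18) and Cdkn2d (p19) encode proteins that bind CDK4 and CDK6 and keep the D cyclins off them. Cdkn2a also encodes ARF from another first exon and another reading frame, and ARF holds back Mdm2, the ubiquitin ligase of p53. Doxorubicin poisons topoisomerase II and breaks DNA, and Cdkn1a is a textbook target of p53 after such damage. In cultured fibroblasts Cdkn2a and Cdkn2b are known to be switched on with passage and stress.

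Library totals lay between 15560728 and 24122414 counts, and each count was scaled to library size with TMM factors and is given as CPM, the unit of all levels here. At these totals a floor of 3 counts equals 0.124 to 0.193 CPM, a limit that covers counting error only, and the lowest count of any inhibitor was 64. Sall2 itself, as a check of the labels, reached 37.7 CPM in the WT control, 24.05 CPM in the Het control and 19.02 to 24.3 CPM in the 3 KO controls. With doxorubicin these were 9.35 CPM for WT, 7.95 CPM for Het, and 3.72 and 4.23 CPM for KO. Each KO library was lower than the WT library of its arm, and none was at 0. The fibroblast markers Col1a1, Col1a2 and Col3a1 were among the genes detected in every library, while 4 of 6 erythroid genes were at 0 in all of them. The Het and KO embryo 3 control libraries stood apart. Their 10 interferon response genes summed to 2172 and 2374 CPM against 45.7 to 63.3 CPM in the other 3 controls, their 10 fibroblast markers to 20352 and 16504 CPM against 78878 to 96060 CPM, their 12 proliferation genes to 416 and 542 CPM against 1257 to 1638 CPM, and the 7 macrophage markers in the table to 529 and 406 CPM against 93.1 to 159 CPM. The Het library with doxorubicin showed the same 4 lists at 1443, 22376, 409 and 544 CPM, against 331 to 418, 47610 to 59712, 921 to 1156 and 86.1 to 123 CPM in the other treated libraries. Between the arms, Pdgfrb was the 1 of 10 fibroblast markers that passed an FDR under 0.01. It was at 215.5 to 606.9 CPM in control and 39.05 to 77.2 CPM with doxorubicin (log2 difference -2.83, SE 0.344, edgeR FDR 0.000212). With each treated library set against the control of its own embryo, Pdgfra fell as well and Thy1 rose. The 6 endothelial markers summed to 17.6 to 46.8 CPM in control and 35.7 to 90.8 CPM with doxorubicin. Emcn alone was at 40.5 CPM in the WT control and at 10.1 to 13.6 CPM in the other controls. The 6 epithelial markers summed to 6.96 to 18.8 and 7.07 to 13.1 CPM. In control this sum was mostly Krt18 (6.72 to 18.1 CPM), which fell with doxorubicin (log2 difference -1.62). Epcam (4.46) and Krt5 (6.89) rose from 0.36 CPM or less. The part of the fibroblast, endothelial and epithelial lists in the results was not tested. In bulk RNA, fewer cells of a type and less RNA per cell cannot be told apart.

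**Figure D1:**
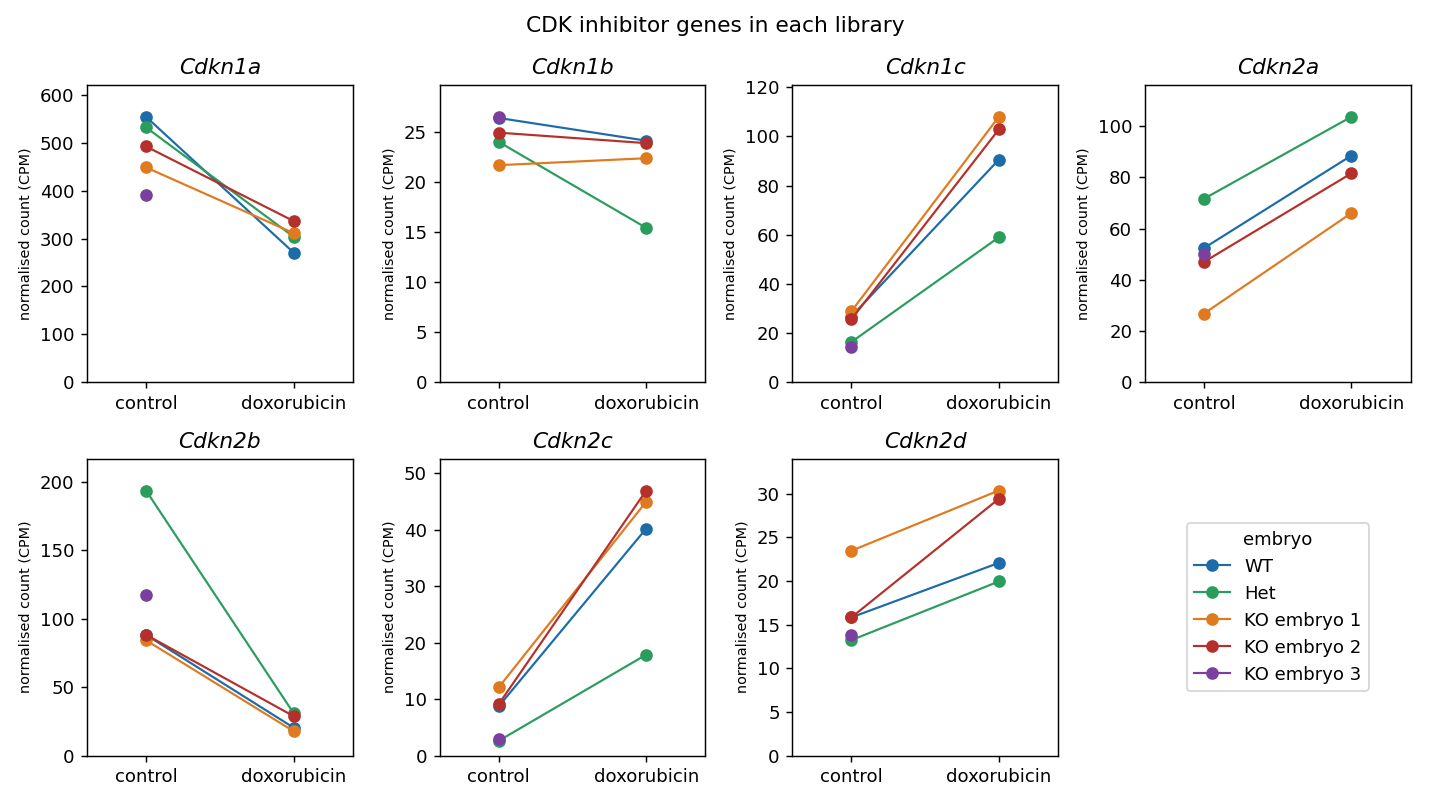
Normalised count (CPM, y axis from 0) of each CDK inhibitor gene in each of the 9 libraries. Points are libraries, lines join the control and the doxorubicin library of an embryo, and KO embryo 3 has a control point only. Cdkn1c and Cdkn2c are higher with doxorubicin in 4 of 4 embryos, Cdkn2b is lower in 4 of 4, the Het library is the lowest of the treated ones in Cdkn1b, Cdkn1c and Cdkn2c, and the Het control is the highest control in Cdkn2b.

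The first comparison asked which inhibitors responded to doxorubicin. With all 9 libraries in a single fit of genotype and treatment, Cdkn1c and Cdkn2c rose and Cdkn2b fell at an FDR under 0.01 (edgeR, quasi-likelihood, two-sided). Of all 16656 genes tested, 21.9% were higher with doxorubicin and 18.7% were lower at the same FDR, so the 2 of 7 inhibitors that rose and the 1 of 7 that fell were shares near those of the table as a whole. With the embryo as a replicate block, which compares each treated library with the control of its own embryo, Cdkn2a and Cdkn2d joined the rise and Cdkn1a joined the fall, which made 4 of 7 higher and 2 of 7 lower, against 30% of all genes higher and 26.9% lower. Under the block, the calls of Cdkn1a and Cdkn2d depended on the embryo given to the library counted once, here KO embryo 2. This library held 0 Y-linked and 4163 Xist counts. The KO embryo 2 control held 1 and 5997, and the KO embryo 3 control held 6397 and 31. With this library taken as KO embryo 3, the block gave 3 of 7 higher and 1 of 7 lower. Of all 16656 genes, 3442 were higher and 2988 lower in this fit. Cdkn1a (edgeR FDR 0.038) and Cdkn2d (edgeR FDR 0.0245) did not pass while Cdkn2a did (edgeR FDR 0.00527). Cdkn1b passed in none of these fits. The median log2 difference of the 7 inhibitors was 0.66 and that of all genes tested was 0.02. The 3 calls without the block were also made with DESeq2, whose 6 calls were those of the block. DESeq2 called 4513 of all 16656 genes higher and 3708 lower. Without KO embryo 3, 6 calls were made as well, and 5210 of all 16577 genes were called higher and 4560 lower.

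**Figure D2:**
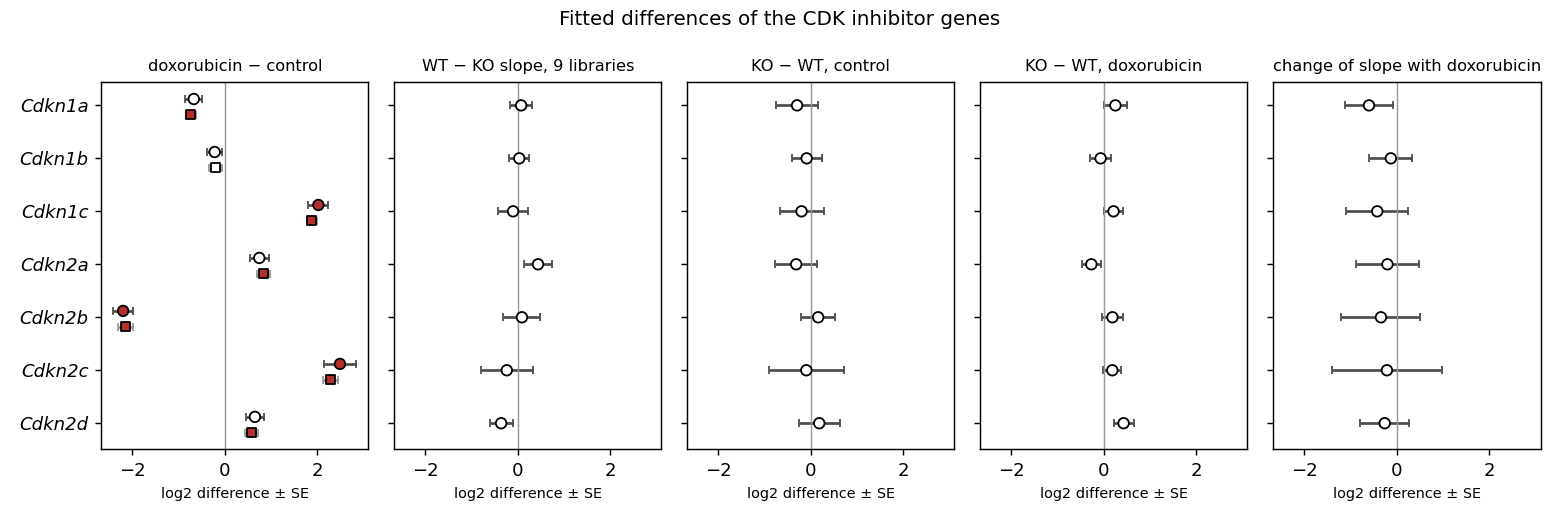
Fitted log2 differences with their standard errors (x axis) for each inhibitor (y axis) in 5 comparisons; circles are the fits without a block, squares in the first panel the fit with the embryo as a block, and filled symbols passed an FDR under 0.01. Filled symbols occur in the first panel, at 2.03 for Cdkn1c, 2.50 for Cdkn2c and -2.20 for Cdkn2b without the block, and in none of the 4 panels on genotype.

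Cdkn1a, the CIP/KIP gene on chromosome 17 from 29090976 to 29100727 on the plus strand (GRCm38, the assembly of mm10), had the highest mean level per kb of exon in both arms. RefSeq lists 2 starts for it, and the 120 bases before the upstream start, at chr17:29090859-29090978, are shown because they hold 2 matches to the p53 half-site consensus, which are in capitals.

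Cdkn1a, upstream start: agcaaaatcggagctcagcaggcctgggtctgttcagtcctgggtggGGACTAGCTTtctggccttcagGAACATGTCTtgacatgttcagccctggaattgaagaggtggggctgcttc

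These matches begin 73 and 51 bases before the start. The 250 bases before the downstream start held none, and 7.13% of the 32851 promoter windows of RefSeq held at least 1 match within the same 250 bases, on either strand. GENCODE places AC167363.2 on the opposite strand over 273 exon bases of Cdkn1a. The count table does not list AC167363.2 and the strand setting of the counting is not given, so its reads may be included. Without treatment Cdkn1a stood at 555 CPM in the WT embryo, 533 CPM in the Het embryo, and 449, 493 and 392 CPM in the KO embryos 1 to 3. After doxorubicin the same embryos gave 271 CPM (WT), 304 CPM (Het), 312 CPM (KO embryo 1) and 337 CPM (KO embryo 2). All 4 treated libraries lay below all 5 controls, and the group means were 484 ± 65.7 CPM (SD, n = 5) and 306 ± 27.2 CPM (SD, n = 4). The share of all genes whose arms did not overlap was not counted, for this gene or the inhibitors below. In this comparison 10096 of 16656 genes had an unadjusted edgeR p under 0.05. The log2 difference of Cdkn1a was -0.67 (SE 0.187, edgeR FDR 0.0145), which missed the threshold, and -0.73 (SE 0.114, edgeR FDR 0.00058) with the embryo as a block. Cdkn1a was thus lower after 16 h of a DNA-damaging drug in 4 of 4 embryos, at a log2 ratio within the embryo of -1.04 (WT), -0.81 (Het), -0.53 (KO embryo 1) and -0.55 (KO embryo 2). An exact two-sided permutation test of the log2 CPM over the 126 ways to draw 4 of 9 libraries gave p = 0.0159. Here and below, this test took the libraries as exchangeable, without regard to embryo or genotype, and its p is not adjusted over genes. With KO libraries only, the log2 difference was -0.44 (SE 0.266, edgeR FDR 0.253).

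The transcript next to it, Trp53cor1, a long noncoding RNA known to be induced by p53 and also called lincRNA-p21, ends 11797 bases before Cdkn1a. Trp53cor1 lay between 0.976 and 2.47 CPM in control and between 3.005 and 8.14 CPM with doxorubicin, with a log2 difference of 1.32 (SE 0.345, edgeR FDR 0.0105), which missed the threshold. With the embryo as a block it was 1.58 (edgeR FDR 0.000469), and Trp53cor1 passed. The gene on the other side, Rab44, was at or below 0.459 CPM in every library. The treated libraries of Trp53cor1 were all above its controls, while those of Cdkn1a were all below.

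Cdkn1b, a CIP/KIP gene that restrains CDK2 in resting cells, lies on chromosome 6 from 134920401 to 134925513. It was at 26.4, 24.01, 21.7, 24.9 and 26.5 CPM in the WT, Het and KO embryo 1, 2 and 3 controls. With doxorubicin it was at 24.1, 15.4, 22.4 and 23.9 CPM in WT, Het and KO embryos 1 and 2. The groups overlapped, and the Het library with doxorubicin was the only value under 20 CPM. The log2 difference was -0.21 (SE 0.158, edgeR FDR 0.278), and -0.20 (SE 0.147, edgeR FDR 0.262) with the embryo as a block. The log2 ratio within the embryo was -0.13 for WT, -0.64 for Het, 0.05 for KO embryo 1 and -0.06 for KO embryo 2. With the Het embryo and KO embryo 3 left out, it was -0.05 (SE 0.111, edgeR FDR 0.683). Its neighbours in the table, 2810454H06Rik and Apold1, reached no more than 1.45 and 2.59 CPM.

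Cdkn1c, the third CIP/KIP gene, lies on the minus strand of chromosome 7 from 143458339 to 143461050, in a cluster of imprinted genes where the maternal allele alone is known to be expressed. Its controls were at 26.6 CPM (WT), 16.2 CPM (Het), and 28.7, 25.4 and 14.4 CPM (KO embryos 1 to 3). With doxorubicin it reached 90.5 CPM (WT), 58.9 CPM (Het), and 108 and 103 CPM (KO embryos 1 and 2). No treated library overlapped a control, and the means were 22.3 ± 6.51 CPM (SD, n = 5) and 90.1 ± 22.0 CPM (SD, n = 4). Cdkn1c rose by 2.03 on the log2 scale (SE 0.214, edgeR FDR 0.000103), and by 1.89 (SE 0.105, edgeR FDR 4.52e-06) with the embryo as a block. The rise within an embryo was 1.76 for WT, 1.85 for Het, and 1.91 and 2.01 for KO, a span of 0.25 that was the narrowest of the 7 inhibitors. The exact permutation p was 0.00794, the smallest that the 126 arrangements can give. The low controls were those of Het and KO embryo 3, the libraries with few proliferation and fibroblast transcripts; the part of this in the value was not tested, and without both embryos the rise was 1.89 (SE 0.096, edgeR FDR 1.07e-07). GENCODE places an antisense gene, Gm44732, over 625 exon bases of Cdkn1c that the count table does not list, and the strand setting of the counting is not given, so antisense reads may be included.

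Of the 8 tested genes listed for the imprinted region around Cdkn1c, 2 rose and none fell, and the share that rose was near the 21.9% of all genes. Phlda2, which restrains placental growth, was at 0.149 to 0.359 CPM in control, close to the floor, and at 4.45 to 5.01 CPM with doxorubicin (log2 difference 4.31, SE 0.327, edgeR FDR 2.47e-05). Ascl2, a placental transcription factor, was at 0 to 1.26 CPM in control and at 4.58 to 7.36 CPM with doxorubicin (edgeR FDR 0.00874). The next gene to Cdkn1c, Slc22a18, was at 0.492 to 1.90 CPM in control and 1.19 to 1.61 CPM with doxorubicin (log2 difference 0.44, SE 0.425, edgeR FDR 0.402), and Kcnq1 on the other side stayed at or below 0.367 CPM. Kcnq1ot1, the noncoding RNA of the paternal allele, had a log2 difference of -0.28 (SE 0.491, edgeR FDR 0.656). It was highest in the libraries that stood apart, at 14.1 and 15.03 CPM in the Het and KO embryo 3 controls against 2.99 to 4.06 CPM in the other controls. With the block, Igf2, a fetal growth factor, also passed, which made 3 of 8 higher, against 30% of all genes.

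The pair Cdkn2a and Cdkn2b lies on the minus strand of chromosome 4, from 89274471 to 89294653 and from 89306299 to 89311039, with 11646 bases between the genes. The 120 bases before each RefSeq start are shown because these neighbours moved in opposite directions; the capitals mark the GC box GGGCGG, read on both strands.

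Cdkn2a, ARF start, chr4:89294620-89294739: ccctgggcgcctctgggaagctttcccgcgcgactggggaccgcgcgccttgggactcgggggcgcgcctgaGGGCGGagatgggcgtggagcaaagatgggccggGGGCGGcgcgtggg

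Cdkn2a, INK4A start, chr4:89282193-89282312: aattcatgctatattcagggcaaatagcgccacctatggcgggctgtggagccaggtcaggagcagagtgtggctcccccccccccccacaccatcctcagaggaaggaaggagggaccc

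Cdkn2b, chr4:89311033-89311152: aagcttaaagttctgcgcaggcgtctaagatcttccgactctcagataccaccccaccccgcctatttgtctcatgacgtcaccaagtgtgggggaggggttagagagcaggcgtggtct

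The ARF start had GC boxes 48 and 14 bases upstream, and these letters were not in the 250 bases before the INK4A start or before Cdkn2b. The share of all promoter windows with a GC box was 32.7%. The TATA word TATAAA, which 12.4% of all windows hold, was in 0 of the 9 windows of the inhibitors. The same count of 0 was found for the AP-1 word TGACTCA (4.46% of all windows) and for the E-box CACGTG (6.02% of all windows). The E2F word TTTCGCGC, held by 0.256% of all windows, was also in 0 of 9. RefSeq promoter windows were available for 6 of the 7 genes and not for Cdkn1c. The counts give a single value per gene, so p16 and ARF transcripts cannot be separated in Cdkn2a.

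Untreated, Cdkn2a had 52.3 CPM (WT), 71.7 CPM (Het), and 26.7, 46.9 and 50.3 CPM (KO embryos 1 to 3). Treated, it had 88.6 CPM (WT), 104 CPM (Het), and 66.1 and 81.6 CPM (KO embryos 1 and 2). The groups overlapped by 1 pair, since the Het control lay above KO embryo 1 with doxorubicin, yet each embryo was higher with the drug. The log2 difference was 0.75 (SE 0.201, edgeR FDR 0.0119), and 0.85 (SE 0.137, edgeR FDR 0.000727) with the embryo as a block. Within the embryo, the log2 ratio came to 0.76 for WT, 0.53 for Het, 1.30 for KO embryo 1 and 0.80 for KO embryo 2. The exact permutation p was 0.0238.

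Cdkn2b, which TGF-beta is known to induce, had controls at 88.2 CPM (WT), 194 CPM (Het), and 84.2, 88.3 and 117 CPM (KO embryos 1 to 3). The treated libraries were at 20.4 CPM (WT), 31.0 CPM (Het), and 17.9 and 28.8 CPM (KO embryos 1 and 2). Every treated library lay far below every control, at means of 24.5 ± 6.37 CPM (SD, n = 4) against 114 ± 46.2 CPM (SD, n = 5). Cdkn2b fell by 2.20 on the log2 scale (SE 0.212, edgeR FDR 6.94e-05), with -2.15 (SE 0.166, edgeR FDR 1.58e-05) under the block, and it was lower in 4 of 4 embryos. Among all genes tested, counted from the most negative difference, Cdkn1a stood at percentile 28.3, Cdkn1b at 42.5 and Cdkn1c at 84.4. Cdkn2a was at 70.2, Cdkn2c at 87.5, Cdkn2d at 68.1 and Cdkn2b at 2.98. The 2 highest controls were Het and KO embryo 3, where the interferon list was also highest; the part of this in the fall was not tested, and with both embryos left out the log2 difference was -1.95 (SE 0.165, edgeR FDR 2.73e-06).

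As levels per kb of exon, the ratio of Cdkn2a to Cdkn2b was therefore 0.704, 0.439, 0.376, 0.631 and 0.507 in the WT, Het and KO embryo 1, 2 and 3 controls. With doxorubicin it was 5.14, 3.97, 4.39 and 3.36 in WT, Het and KO embryos 1 and 2. Cdkn2b was the more abundant of the neighbours in all 5 controls and Cdkn2a in all 4 treated libraries. Beyond the pair, Mtap, the gene of a methionine salvage enzyme and 93390 bases away from Cdkn2a, was at 141 to 179 CPM in control and 52.6 to 95.8 CPM with doxorubicin, and it fell by 1.097 on the log2 scale (SE 0.181, edgeR FDR 0.00104). On the other flank, Dmrta1 was at 0 to 0.451 CPM in control and at 0.946 to 1.84 CPM with doxorubicin, and it rose (edgeR FDR 0.00209).

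Cdkn2c and Cdkn2d, the INK4 genes known for roles in development and in the growth arrest of differentiating cells, lie apart from this pair, on chromosome 4 from 109660876 to 109667189 and on chromosome 9 from 21288410 to 21291407, both on the minus strand. The 120 bases before the start of Cdkn2c that lies farther upstream and before the start of Cdkn2d are shown because each holds 3 GC boxes, in capitals; the capitals of Cdkn2d also cover a p53 half-site match that overlaps a GC box and begins 102 bases before the start.

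Cdkn2c, chr4:109666757-109666876: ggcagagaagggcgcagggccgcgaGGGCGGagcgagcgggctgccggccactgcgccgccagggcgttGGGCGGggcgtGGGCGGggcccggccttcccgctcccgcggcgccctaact

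Cdkn2d, chr9:21291210-21291329: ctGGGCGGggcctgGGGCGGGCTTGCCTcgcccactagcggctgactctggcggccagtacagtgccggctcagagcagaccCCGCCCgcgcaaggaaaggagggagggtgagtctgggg

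Cdkn2c, the inhibitor with the lowest mean level per kb of exon in control, was there at 8.72 CPM (WT), 2.62 CPM (Het), and 12.1, 9.10 and 3.01 CPM (KO embryos 1 to 3). After treatment it was at 40.2 CPM (WT), 17.9 CPM (Het), and 45.0 and 46.9 CPM (KO embryos 1 and 2). The groups did not overlap, and the means rose from 7.10 ± 4.13 CPM (SD, n = 5) to 37.5 ± 13.4 CPM (SD, n = 4). This rise of 2.50 on the log2 scale (SE 0.352, edgeR FDR 0.000453) was the largest of the 7, and it was 2.29 (SE 0.167, edgeR FDR 1.22e-05) with the block. Log2 ratios within the embryo were 2.19 for WT, 2.72 for Het, and 1.89 and 2.35 for KO. In KO libraries only, the log2 difference was 2.54 (SE 0.541, edgeR FDR 0.0173) and the call was lost. The 2 lowest controls and the lowest treated library were those with the fewest proliferation transcripts; the part of this in the levels was not tested, and without the Het embryo and KO embryo 3 the rise was 2.14 (SE 0.13, edgeR FDR 3.08e-07). The next gene, Faf1, 9399 bases away, fell by 0.99 on the log2 scale (SE 0.138, edgeR FDR 0.000427).

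For Cdkn2d the controls were at 15.8 CPM (WT), 13.2 CPM (Het), and 23.5, 15.8 and 13.8 CPM (KO embryos 1 to 3). The treated libraries of the WT, Het and KO embryos 1 and 2 were at 22.1, 20.0, 30.4 and 29.4 CPM. The groups overlapped because KO embryo 1 was already high in control, and all 4 embryos were higher with the drug. The log2 difference was 0.66 (SE 0.188, edgeR FDR 0.0158), and 0.58 (SE 0.136, edgeR FDR 0.00496) with the embryo as a block. The gene 441 bases from it, Kri1, was at 20.5 to 26.7 CPM in control and 6.12 to 11.9 CPM with doxorubicin, and it fell (edgeR FDR 0.000182). Ap1m2 on the other side was at most at 0.0449 CPM in control, under the floor of 3 counts a library, and at 0.367 to 1.65 CPM with doxorubicin (edgeR FDR 0.000459).

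**Figure D3:**
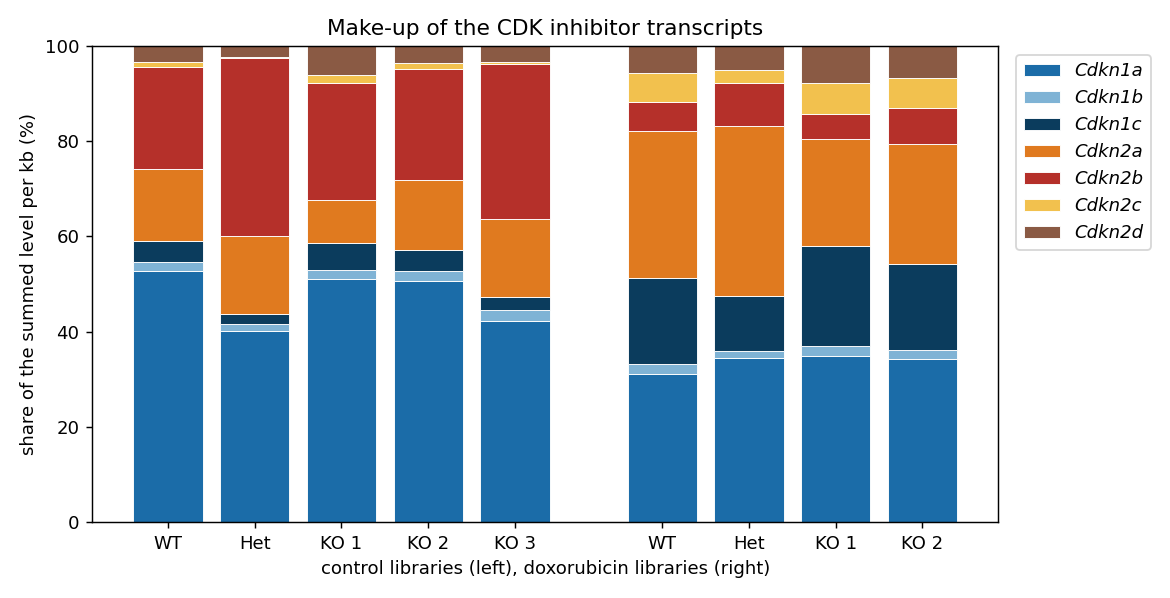
Share of each inhibitor (stacked bars, in percent) in the summed level per kb of the 7 genes, for the 5 control libraries on the left and the 4 doxorubicin libraries on the right. Cdkn2b takes 21.4% to 37.3% in control and 5.12% to 8.99% with doxorubicin, while Cdkn1c takes 2.13% to 5.68% in control and 11.7% to 21.1% with doxorubicin.

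Levels of different genes were compared per kb of exon, with exon lengths from GENCODE, which may differ from the gene models that were counted. In control the order of the mean CPM per kb was Cdkn1a at 136 ± 18.5, Cdkn2b at 82.3 ± 33.3, Cdkn2a at 42.3 ± 13.7, Cdkn1c at 10.9 ± 3.19, Cdkn2d at 10.4 ± 2.61, Cdkn1b at 5.43 ± 0.438 and Cdkn2c at 2.64 ± 1.54 (SD, n = 5). Each gene was above the next in 5 of 5 libraries apart from Cdkn1c and Cdkn2d, whose order held in 2 of 5. With doxorubicin the order of CPM per kb was Cdkn1a at 86.1 ± 7.67, Cdkn2a at 72.6 ± 13.3, Cdkn1c at 44.2 ± 10.8, Cdkn2b at 17.7 ± 4.58, Cdkn2d at 16.2 ± 3.31, Cdkn2c at 13.96 ± 4.98 and Cdkn1b at 4.71 ± 0.901 (SD, n = 4). Here Cdkn1a was above Cdkn2a in 3 of 4 libraries, and Cdkn2b, Cdkn2d and Cdkn2c had overlapping ranges. The summed level of the 7 genes was 248 to 373 CPM per kb in control and 245 to 277 CPM per kb with doxorubicin, and these ranges overlapped. Cdkn1a made up 40.2% to 52.7% of the sum in control and 31.1% to 35.0% with doxorubicin. Cdkn2a made up 9.19% to 16.5% in control and 22.5% to 35.7% with doxorubicin.

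The other comparisons asked whether the inhibitors differed with Sall2 genotype. In control cells 0 of 14470 genes, or 0%, passed an FDR under 0.01 between KO and WT in the quasi-likelihood test of edgeR, 10 had an unadjusted p under 0.05, DESeq2 called 0, and 0 of the 7 inhibitors had an unadjusted p under 0.05. The log2 differences of KO against WT in control were -0.29 (SE 0.455) for Cdkn1a, -0.09 (SE 0.326) for Cdkn1b, -0.20 (SE 0.477) for Cdkn1c, -0.31 (SE 0.456) for Cdkn2a, 0.16 (SE 0.369) for Cdkn2b, -0.09 (SE 0.817) for Cdkn2c and 0.19 (SE 0.445) for Cdkn2d. Cdkn1a and Cdkn2a were each lower in 3 of 3 KO embryos than in the single WT embryo, and the other 5 inhibitors had WT inside the range of KO. The Het control did not lie between WT and KO for Cdkn2a, Cdkn2b, Cdkn2c or Cdkn2d, where it was outside the range of both. With 1 WT embryo, differences within these SEs were not detectable, and differences larger than these SEs could also be missed.

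With doxorubicin, 30 of 15256 genes, or 0.197%, passed between KO and WT, 433 had an unadjusted p under 0.05 and DESeq2 called 5. None of the 7 inhibitors passed in either tool, and 1, Cdkn2d, was among the 433. It was at 29.4 and 30.4 CPM in KO against 22.1 CPM in WT (log2 difference 0.43, SE 0.215, edgeR FDR 1). Cdkn1a was at 312 and 337 CPM in KO against 271 CPM in WT (log2 difference 0.25, SE 0.249, edgeR FDR 1). Cdkn1a was thus lower in KO than in WT in control and higher in KO than in WT with doxorubicin, and neither difference passed the test.

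Genotype was also coded as the share of intact Sall2 alleles (WT 1, Het 0.5, KO 0), and over all 9 libraries the slope on this code passed in 0 of 16656 genes, or 0%, with edgeR, 48 genes had an unadjusted p under 0.05 and DESeq2 called 2. Without the block, the 2 libraries of an embryo were taken as independent here, which they are not, and WT and Het were each 1 embryo. The SEs of the slopes therefore do not measure the spread between embryos alone. The slopes of the inhibitors, as WT minus KO on the log2 scale, ran from -0.36 (SE 0.249) for Cdkn2d to 0.44 (SE 0.309) for Cdkn2a. Leaving out 1 embryo moved these to between -0.99 (without WT) and -0.14 (without KO embryo 1) for Cdkn2d, and to between 0.18 (without KO embryo 1) and 1.31 (without WT) for Cdkn2a. The change of the slope with doxorubicin also passed in 0 of 16656 genes, or 0%, with edgeR, with 12 at an unadjusted p under 0.05 and 0 called by DESeq2. It was -0.60 (SE 0.52, edgeR FDR 1) for Cdkn1a and -0.50 (SE 0.276, edgeR FDR 1) with the embryo as a block, the change furthest from 0 among the 7 in both fits. For Cdkn1c the change was -0.42 (SE 0.666) and for Cdkn2b -0.34 (SE 0.854), and the other 4 lay between -0.26 and -0.13. KO embryos 1 and 3 carried Y-linked transcripts and the WT, Het and KO embryo 2 libraries carried Xist in their place, so sex was not balanced over genotype.

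**Figure D4:**
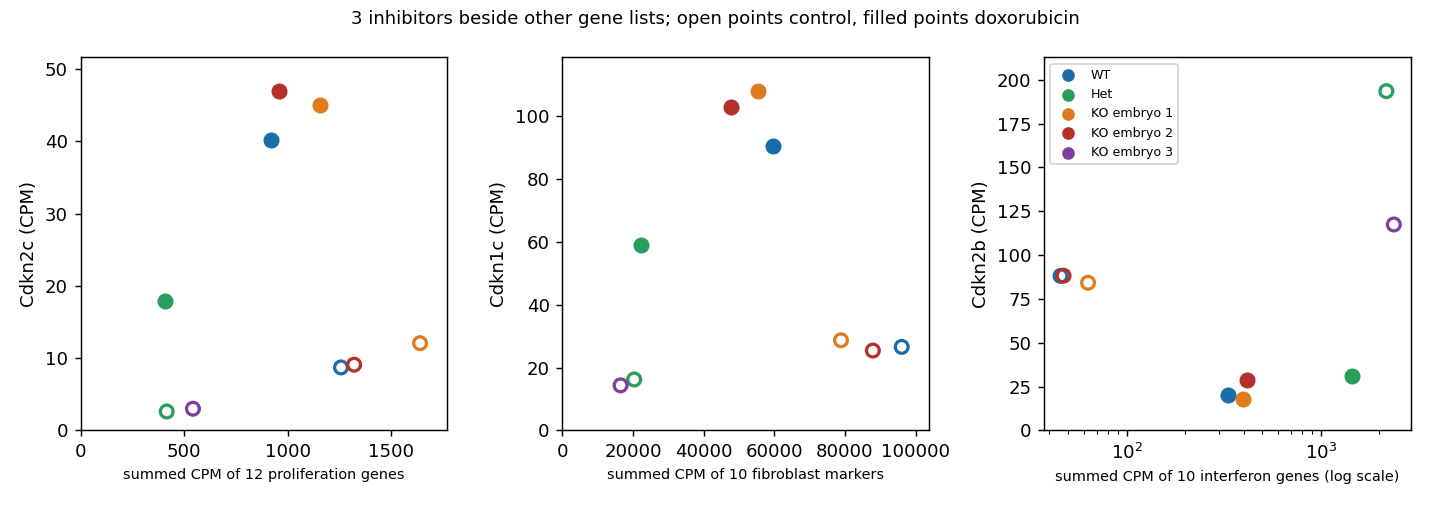
Normalised count (CPM, y axis) of Cdkn2c, Cdkn1c and Cdkn2b in each of the 9 libraries against the summed CPM of a gene list (x axis; log scale in the third panel). Open points are control and filled points doxorubicin. Within control, the Het and KO embryo 3 libraries hold the lowest Cdkn2c (2.62 and 3.01 CPM), the lowest Cdkn1c (16.2 and 14.4 CPM) and the highest Cdkn2b (194 and 117 CPM).

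The partners and targets of the inhibitors were followed as lists, whose counts stand against the 21.9% of all genes that rose and the 18.7% that fell (30% and 26.9% with the block). Of 12 cyclins and CDKs, 4 fell and 0 rose with doxorubicin, at a median log2 difference of -0.42 against 0.02 over all genes tested. Cdk2, the partner of cyclins E and A and the main target of the CIP/KIP proteins, was at 36.0 to 46.8 CPM in control and 19.6 to 21.7 CPM with doxorubicin, and it fell by 1.00 on the log2 scale (SE 0.141, edgeR FDR 0.000441). Cdk4 and Cdk6, the kinases that INK4 proteins bind, fell by 0.74 (SE 0.185) and 0.81 (SE 0.169). Ccnd2, a D cyclin, was at 1183 to 1320 CPM in control and 654 to 758 CPM with doxorubicin. With the embryo as a block, 7 of the 12 fell and 1, Ccne2, rose.

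Among 20 genes of the p53 axis, 3 rose and 2 fell, shares below the 21.9% and 18.7% of all genes, and with the block 4 rose and 6 fell, against 30% and 26.9% of all genes. Pmaip1, which promotes apoptosis, was at 62.9 to 198 CPM in control and 439 to 601 CPM with doxorubicin, and it rose by 2.19 (SE 0.315, edgeR FDR 0.0005). Plk3, a stress kinase, rose by 1.59 (SE 0.14) and Sesn1, a stress-response inhibitor of mTORC1, by 1.21 (SE 0.242). Mdm4, an inhibitor of p53, fell by 2.11 (SE 0.306), and Phlda3, an inhibitor of Akt, fell by 1.46 (SE 0.185). Trp53 had a log2 difference of 0.32 (SE 0.166, edgeR FDR 0.135) and Mdm2 of -0.25 (SE 0.302, edgeR FDR 0.512).

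Of 12 genes that control the turnover of the inhibitor proteins, 3 fell and 1 rose. Skp2, whose ubiquitin ligase marks p27 for destruction, was at 16.9 to 38.3 CPM in control and 4.46 to 15.6 CPM with doxorubicin and fell by 1.37 (SE 0.215, edgeR FDR 0.000804). Cul1, the scaffold of that ligase, fell by 0.95 (SE 0.14), and Cul4b fell by 0.86 (SE 0.171). Fbxw7, which marks cyclin E, rose by 0.73 (SE 0.135). With the block, 4 fell and 2 rose.

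Of 22 regulators of the locus that holds Cdkn2a and Cdkn2b, 3 rose and 3 fell, shares below the 21.9% and 18.7% of all genes, and with the block 3 rose and 6 fell, against 30% and 26.9% of all genes. Tbx2, a repressor of Cdkn2a, was at 8.72 to 12.3 CPM in control and 48.7 to 68.1 CPM with doxorubicin, and it rose by 2.46 (SE 0.135, edgeR FDR 7.05e-06). Its relative Tbx3 rose by 0.93 (SE 0.172), and Ezh2, the methyltransferase of Polycomb, rose by 1.16 (SE 0.176). Ring1 and Phc2, subunits of the other Polycomb complex, fell by 1.26 (SE 0.232) and 0.90 (SE 0.155), and Jdp2, an AP-1 family factor known to keep Polycomb off Cdkn2a, fell by 0.91 (SE 0.193).

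Of 19 transcription factors and TGF-beta genes upstream of the inhibitors, 2 rose and 7 fell, and with the block 4 rose and 8 fell. Smad4, through which TGF-beta is known to act on Cdkn2b, was at 69.6 to 106 CPM in control and 26.2 to 34.5 CPM with doxorubicin and fell by 1.54 (SE 0.164, edgeR FDR 0.000109). Myc and its partner Zbtb17, which repress Cdkn2b and Cdkn1a, fell by 1.21 (SE 0.188) and 1.03 (SE 0.19), and Sp3 fell by 0.93 (SE 0.139). Foxo4 rose by 1.077 (SE 0.175). Of the 12 proliferation genes, 3 fell and 0 rose, with Top2a, the target of doxorubicin, at a log2 difference of -2.36 (SE 0.408), and with the block 6 fell and 1 rose.

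**Figure D5:**
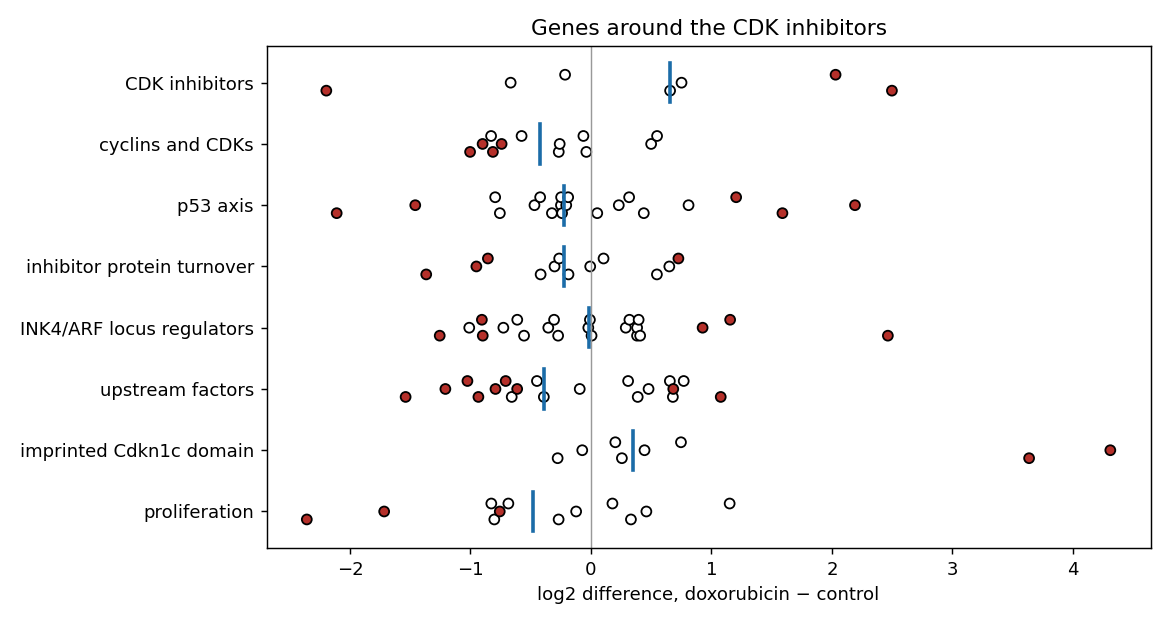
Log2 difference of doxorubicin against control (x axis) for the genes of 8 lists (y axis); each point is a gene, filled points passed an FDR under 0.01 without the block, and blue bars are list medians. The medians run from -0.48 for proliferation to 0.66 for the CDK inhibitors, and every list holds points on both sides of 0.

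Over the 9 libraries, the genes with the pattern most like each inhibitor were picked by Pearson's r of log2 CPM. They came from 11121 genes of at least 5 CPM on average. The r values cover control and treated libraries together, with those that stood apart, so a shared difference between the arms enters them. Cdkn2c had r = 0.999 with Abcb10, a mitochondrial transporter, and 0.996 with Chst7. Cdkn1c had r = 0.998 with Gm2a, the GM2 activator, and with Slc9a3r1. For Cdkn2b the nearest were Zfp870, Cd2ap and Fam195b (r = 0.984 to 0.985), for Cdkn1a Pgpep1, Mtss1l and Prickle1 (0.969 to 0.976), and for Cdkn1b Ppa2, Gnpda2 and Rpl3 (0.959 to 0.975). For Cdkn2a they were Coq10a, Zbtb5 and Zscan29 (0.953 to 0.959) and for Cdkn2d Serpina3n, Acss2 and Bdh1 (0.958 to 0.971). Among the inhibitors, Cdkn1c and Cdkn2c had r = 0.978 and both ran against Cdkn2b (r = -0.967 and -0.948), while Cdkn2a and Cdkn2d had r = 0.149.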

How the data were processed

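RNA-Seq libraries of rRNA-depleted total RNA were made with a stranded kit and sequenced by Illumina. The authors pooled the FASTQ files of a sample, mapped reads to mm10 with HISAT2 (2.1.0 per the labels), and obtained gene counts from HTSeq (union mode, iGenomes annotation), and the strand setting is not given in the sources used here. The deposited values are raw counts, whole numbers per gene in 10 columns, with 4 sequencing runs per library merged. The 2 columns of KO embryos 2 and 3 with doxorubicin are identical and were taken as 1 library of KO embryo 2, which like the control of that embryo lacks Y-linked transcripts, while KO embryo 3 has them. Groups follow the labels.

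Counts were scaled with TMM, filtered with filterByExpr, and tested with edgeR 4.0.16 in R 4.3.3 (quasi-likelihood, two-sided), with DESeq2 1.42.0 as an alternative, with Benjamini-Hochberg adjustment over all genes tested, at an FDR under 0.01. The test was also run on counts simulated with a common dispersion. These had no link between the libraries of an embryo, which the real libraries have, and no result here rests on them. For the doxorubicin comparison the model held genotype and treatment over 9 libraries. Where the spread comes from embryos of KO alone, p-values measure the spread between these samples only. log2 CPM used a prior count of 2. Positions and exon lengths are from GENCODE vM21 (GRCm38) and promoter windows from RefSeq (GRCm38.p6).

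The labels give control and treated libraries of a genotype the same number, which was taken to mark an embryo. The pairing was checked through the difference of KO embryo 1 from KO embryo 2, which was correlated between control and doxorubicin (Pearson's r = 0.342 over 16656 genes, which are not independent replicates). With KO embryo 3 in control in place of KO embryo 2, against the same treated difference, r was 0.174. The KO embryo 3 control stood apart and both differences share KO embryo 1, so these r values do not settle the pairing. The WT and Het pairs, of 1 embryo each, could not be checked in this way.

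The members, the gene lists and the tests were chosen with earlier results of these data known. Genes named are the 7 inhibitors, up to 6 per list with the largest change among those past the threshold or given beside a result, the nearest genes on each side, the 3 most similar in pattern for each inhibitor, and Sall2. Alternatives were DESeq2, no filter, Rn45s left out, other FDR thresholds, RUVg with 1 factor, the embryo as a block, each embryo left out, KO libraries only, all libraries in a single fit, an exact permutation test, and, chosen after the data were seen, the Het embryo and KO embryo 3 left out and the library counted once taken as KO embryo 3.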

Additional observations from a re-analysis of the deposited data

Results flagged for a closer look

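A pair of values of the CDK inhibitors lay far from the other libraries of their arm, both in the Het library with doxorubicin. In log2 CPM, the gap of Cdkn1b in this library (15.4 CPM) to the nearest of the other 3 treated libraries (22.4 to 24.1 CPM) was 0.831 of the range of the 4 libraries. The gap of Cdkn2c (17.9 CPM against 40.2 to 46.9 CPM) was 0.839 of the range. Dixon's test was run for 14 sets of libraries, of which chance flags about 1 in 20. The same library also had the lowest proliferation sum (409 CPM) and the highest macrophage sum (544 CPM) among the treated libraries, and their part in both values was not tested.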

How the results depend on the processing

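In the doxorubicin comparison, Cdkn1c and Cdkn2b kept their calls in every setting tried and no inhibitor changed sign. Of 7 inhibitors, 4 were higher and 2 lower with DESeq2, at an FDR of 0.05 and with the embryo as a replicate block. The same held with the Het embryo and KO embryo 3 left out (10281 of 15442 genes called), and 2 were lower with RUVg. More of all 16656 genes were also called: 8221 with DESeq2, 9258 at an FDR of 0.05, 9486 with the block and 10059 with RUVg. With the library counted once taken as KO embryo 3, the replicate block gave 3 higher and 1 lower and 6430 genes, and Cdkn1a and Cdkn2d were not called. With KO libraries only, 1 was higher and 1911 genes were called, and at an FDR of 0.001, 3430 were. Leaving out each embryo in turn gave 2916 genes (KO embryo 2 left out) to 9770 genes (KO embryo 3 left out), with 3499 for KO embryo 1 and 4463 for WT, against 6760 with all. It gave 2 to 4 inhibitors higher and 1 to 2 lower, the higher numbers without KO embryo 3. The causes were not tested.

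Between KO and WT in control, 47, 41 and 0 genes were called with KO embryos 1, 2 and 3 left out in turn. With doxorubicin there were 5 with DESeq2, 46 at an FDR of 0.05 and 0 with all 9 libraries in a single fit, against 30. For the genotype slope there were 2 with DESeq2, 1 with RUVg, and 3 without the Het embryo and KO embryo 3. No inhibitor was among the calls of any genotype comparison in any setting.

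Some genotype differences of inhibitors, none of which passed, changed sign with an embryo left out in turn. For KO against WT in control the ranges were -0.39 to 0.042 for Cdkn1c, -0.016 to 0.26 for Cdkn2b, -0.51 to 0.30 for Cdkn2c and -0.065 to 0.33 for Cdkn2d. For the slope they were -0.55 to 0.11 for Cdkn1b, -1.31 to 0.11 for Cdkn1c, -0.20 to 1.47 for Cdkn2b and -2.98 to 0.11 for Cdkn2c. Without a change of sign it ran from -0.99 to -0.14 for Cdkn2d, 0.18 to 1.31 for Cdkn2a and 0.0015 to 0.20 for Cdkn1a. For the change of the slope with doxorubicin they were -1.13 to 0.039 for Cdkn1b, -1.18 to 0.16 for Cdkn2b and -0.59 to 0.51 for Cdkn2c. Without the Het embryo and KO embryo 3, the slope was -0.0098 for Cdkn1a and -0.082 for Cdkn2b, and the change of slope was 0.11 for Cdkn2c, which was 0.18 with the embryo as a replicate block. The block could not be used for the genotype comparisons within an arm, where each embryo gave 1 library.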

Other observations

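Of the 3 genes whose names include Cdkn but that encode no inhibitor of the CIP/KIP or INK4 families, Cdkn2aipnl fell with doxorubicin by 1.92 on the log2 scale (SE 0.169, edgeR FDR 4.89e-05), from 19.3 to 24.7 CPM in control to 4.85 to 6.98 CPM. Cdkn2aip, which encodes a partner of ARF, was at 15.4 to 22.5 CPM in control and 22.9 to 28.9 CPM with doxorubicin (log2 difference 0.51, SE 0.165, edgeR FDR 0.0281). Cdkn3, a phosphatase of CDK2 that is expressed in dividing cells, was at 2.46 to 9.61 CPM in control and 0.969 to 5.51 CPM with doxorubicin (log2 difference -0.92, SE 0.379, edgeR FDR 0.0682). With the embryo as a block, Cdkn2aip rose and Cdkn3 and Cdkn2aipnl fell at an FDR under 0.01.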
